A study of Mus musculus with 5 samples.

Results

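The simple and ductal epithelial keratins are 7 genes, Krt7, Krt8, Krt18, Krt19, Krt20, Krt23 and Krt80, chosen by symbol from the 55397 genes listed. All 7 had a row, and all 7 passed the filter on low values, as did 17105 genes in all. Their messenger RNA (mRNA) was measured in bulk RNA-seq libraries of dissected mouse liver tumors, 2 Control and 3 with late Prox1 overexpression (Prox1 OE).

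The mice of both groups were female C57BL/6N animals of 8 weeks. Each received Sleeping Beauty transposase together with Akt and with NICD, the active intracellular part of the Notch1 receptor, by hydrodynamic tail vein injection, a rapid large-volume injection that delivers DNA to hepatocytes. Akt and NICD stood behind the EF1a promoter, which is active in most cell types, and the NICD plasmid also carried rtTA, the doxycycline-dependent activator. Prox1 OE mice received a doxycycline-responsive plasmid for FLAG-tagged mouse Prox1 and GFP, whereas the Control plasmid carried GFP without Prox1. Both groups were on the 6.25% doxycycline diet from day 21, which placed Prox1 induction between week 3 and week 4. The labels give collection after a week of induction or at humane endpoint without assigning tumors to either. They do not state that the tumors of a group came from separate mice, so p-values measure the spread between these libraries. A tumor sample also holds cells that took up no plasmid.

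Keratins are the intermediate filament proteins of epithelial cells, and a filament is built from pairs of an acidic type I keratin and a basic type II keratin. KRT8 and KRT18 form the filaments of hepatocytes, and bile duct cells (cholangiocytes) add KRT7 and KRT19, which pathologists use to tell cholangiocarcinoma (CCA) from hepatocellular carcinoma. The comparison asks how the mRNA of these keratins differed between Akt/Notch tumors, which resemble CCA, and the same tumors after Prox1, a hepatocyte transcription factor, had been switched on.

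Libraries held 48740863 to 56629477 reads. Values are normalized counts, namely reads divided by a size factor of the library. In Control replicates 1 and 2, Prox1 stood at 4153 and 4664 normalized counts. Prox1 OE replicates 1, 2 and 3 had 48090, 11113 and 8231. All Prox1 OE values lay above both Control values, by very unequal amounts, and reads of the plasmid and of the mouse gene were not separated. Prox1 had a log2 fold change of 1.90 (SE 0.66), with an adjusted p of 0.061 by limma, the test used for all genes here (two-sided, Benjamini-Hochberg over the 17105 genes, called under 0.05). It was called without Prox1 OE replicate 1 (1.12, limma adjusted p 0.0056), without Prox1 OE replicate 3 (2.39, limma adjusted p 0.032) and by edgeR (2.36, adjusted p 0.047). Fold changes are Prox1 OE over Control on the log2(normalized count + 1) scale.

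Krt7, Krt19 and Krt80 fell and Krt20 rose, whereas Krt8, Krt18 and Krt23 did not pass the test. Thus 4 of the 7 keratins were called, 3 lower and 1 higher. Over all genes tested, 33.3% were called, 16.2% lower and 17.1% higher. Values of the 2 groups did not overlap for 6 of the 7 keratins, against 63.3% of all genes tested, so that this count is of little weight by itself. The keratins did not move as a block, with log2 fold changes from -2.50 for Krt7 to 1.85 for Krt20, beside a median of -0.02 over all genes tested. In bulk RNA, fewer cells of a type and less RNA per cell cannot be told apart.

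**Figure D1:**
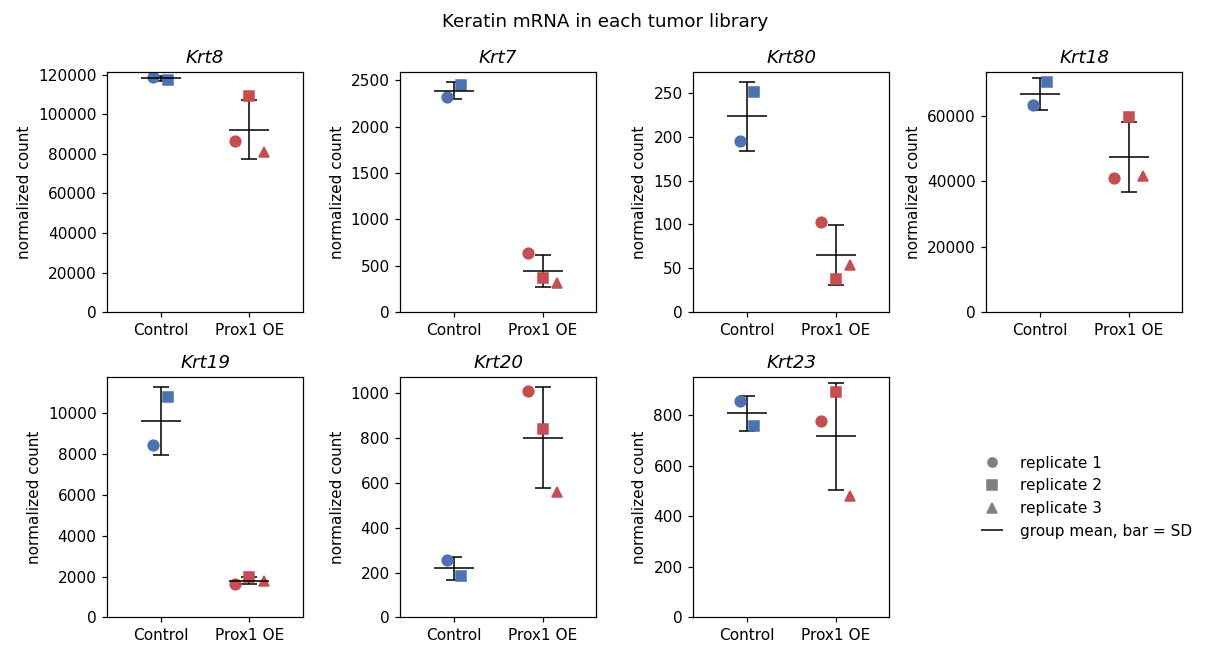
Normalized count (vertical axes, from 0) of each keratin in the 2 Control libraries (blue) and the 3 Prox1 OE libraries (red); marker shape gives the replicate number, the horizontal line the group mean and the bar the SD. Control values of Krt7, Krt19 and Krt80 all lie above the Prox1 OE values, those of Krt20 below them, and only for Krt23 do the groups overlap.

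Promoter sequence is shown for Krt7, which fell, and Krt20, which rose, so that opposite movers can be set side by side. RefSeq windows (GRCm38.p6) were used for the 250 bases before the RefSeq start, read 5′ to 3′ in the direction of the gene, and 5 of the 7 keratins matched. The windows lie at chr15:101412153-101412402 on the plus strand for Krt7 and chr11:99438154-99438403 on the minus strand for Krt20. RefSeq and GENCODE starts differ. The RefSeq start of Krt20 is 3 bases before its GENCODE gene start, but that of Krt7 is 1360 bases inside the GENCODE gene, 1 base past the start of another Krt7 transcript, so that the whole Krt7 window lies within the gene as positioned here. The RefSeq starts of Krt8, Krt18 and Krt23 are 140, 36 and 17 bases inside their GENCODE genes. Capitals mark letters of a searched motif.
Krt7: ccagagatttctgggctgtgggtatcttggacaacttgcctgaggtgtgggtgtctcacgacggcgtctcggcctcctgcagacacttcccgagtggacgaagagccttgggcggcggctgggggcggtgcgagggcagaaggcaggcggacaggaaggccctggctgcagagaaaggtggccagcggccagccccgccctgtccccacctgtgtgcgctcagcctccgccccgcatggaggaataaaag
Krt20: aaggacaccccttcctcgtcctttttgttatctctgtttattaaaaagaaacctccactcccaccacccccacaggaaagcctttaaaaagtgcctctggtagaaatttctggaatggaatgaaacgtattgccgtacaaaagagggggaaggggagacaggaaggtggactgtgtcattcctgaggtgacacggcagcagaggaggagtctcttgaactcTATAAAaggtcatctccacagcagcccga
On either strand, these 250 bases were searched for the core letters of RBPJ (TGGGAA), the DNA-binding partner of NICD, of SOX factors (ACAAT), of HNF4 (CAAAGTC) and of the TATA box (TATAAA). The same 250 bases were searched in all 32851 windows. Krt20 held TATAAA starting 29 bases before the RefSeq start, letters found in 12.4% of all windows. Of the windows not printed, Krt8 held TGGGAA starting 134 bases before its RefSeq start, which is inside the gene by the GENCODE start, and 21.6% of all windows held these letters. Krt23 held ACAAT starting 90 bases before the RefSeq start, letters found in 27.7% of all windows. CAAAGTC, in 3.84% of windows, was found in none of the 5, and Krt7 and Krt18 held none of the 4 motifs. The GC content was 66% for Krt7, 60.4% for Krt18, 58% for Krt8 and 48% for Krt20.

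Krt19 encodes the smallest keratin, a type I protein of bile duct cells and of liver progenitor cells. It lies on chromosome 11 from 100140810 to 100148665 (minus strand, GRCm38, as for all gene positions here). Control libraries had 8442 and 10790 normalized counts of Krt19, and Prox1 OE libraries had 1643, 1968 and 1785. Both Control values were far above the Prox1 OE values, and the 3 Prox1 OE libraries lay close together despite their unequal Prox1. The means were 9616 ± 1660 (SD, n = 2) and 1799 ± 163 (SD, n = 3), so that the Prox1 OE level was 5.35-fold lower. Its log2 fold change came to -2.41 (SE 0.15, 95% interval -2.75 to -2.07, limma adjusted p 0.0014), and its p was the 4th smallest of all genes tested. Krt19 was called under all 16 alternative settings.

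Krt7 encodes the type II keratin that marks bile ducts beside KRT19, and it lies on chromosome 15 from 101411043 to 101430313 (plus strand). Control libraries had 2319 and 2451 normalized counts of Krt7, whereas Prox1 OE libraries had 636, 372 and 317, in replicate order. The highest of the Prox1 OE values was in replicate 1, the library with most Prox1, and was still far under both Control values. Krt7 changed by -2.50 (SE 0.28, 95% interval -3.14 to -1.85, limma adjusted p 0.0024) on the log2 scale, a 5.40-fold lower mean. Krt7 was called under all 16 alternatives, from -2.93 to -2.29. Results for Krt7 and Krt19 in these libraries were known when the genes were chosen, so their direction here is not independent evidence. An opposite-strand gene, Gm671, overlaps Krt7 and held 61 and 55 reads in the Control libraries and 10, 16 and 5 in the Prox1 OE libraries. The libraries kept strand, but whether counting used it is not given in the sources used here. Krt7 itself held 274 to 2892 reads, many times those of Gm671.

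Krt80, a type II keratin linked to differentiating epithelia, had the lowest level of the 7 per kilobase of mean transcript length in both groups (chromosome 15 from 101347444 to 101370162, minus strand). It measured 196 and 251 normalized counts in Control against 103, 37.8 and 53.2 in Prox1 OE. The groups did not overlap, and Prox1 OE replicate 1 again stood above the other two. On the log2 scale Krt80 changed by -1.88 (SE 0.42, 95% interval -2.86 to -0.91, limma adjusted p 0.014). The limma adjusted p was 0.077 without Control replicate 1 and 0.099 without Control replicate 2, so this call rested on having both. Krt80 values rested on 32 to 296 reads, and Gm35853, which overlaps it on the opposite strand, held 15 to 26 reads in every library, so that the Krt80 level in Prox1 OE is uncertain to that extent.

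Krt20 was the 1 keratin of the 7 that rose. It encodes a type I keratin known from intestinal epithelium, gastric surface cells and urothelium, and lies on chromosome 11 from 99428403 to 99438150 (minus strand). Krt20 measured 254 and 183 normalized counts in Control against 1008, 839 and 559 in Prox1 OE. Every Prox1 OE library had more than either Control library, and replicate 1 had most. The log2 fold change was 1.85 (SE 0.27, 95% interval 1.21 to 2.48, limma adjusted p 0.0038), a 3.67-fold higher mean. The call was kept under all 16 alternatives, from 1.42 under total-count scaling to 2.09 without Prox1 OE replicate 3.

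Krt8 and Krt18, the pair that hepatocytes and bile duct cells share, were by far the most abundant. Krt8 (type II, chromosome 15 from 101996698 to 102004482, minus strand) measured 118896 and 117267 normalized counts in Control against 86514, 109102 and 80802 in Prox1 OE. Krt18 (type I, chromosome 15 from 102028180 to 102032027, plus strand) measured 63186 and 70207 in Control and 41054, 59734 and 41447 in Prox1 OE. For both genes the groups did not overlap, and Prox1 OE replicate 2 stood nearest to Control. Krt8 had a log2 fold change of -0.37 (SE 0.21, 95% interval -0.87 to 0.13), with a limma adjusted p of 0.21. That of Krt18 was -0.51 (SE 0.21, 95% interval -1.01 to -0.01), with a limma adjusted p of 0.10. Neither was called, and the intervals leave room for a fall to 0.549 of the Control level for Krt8 and 0.496 for Krt18. Both were called when libraries were scaled by total count, at -0.80 (limma adjusted p 0.012) and -0.94 (limma adjusted p 0.0073), a scaling that moved the median of all genes from -0.02 to -0.44. Krt18 was also called without Prox1 OE replicate 2, at -0.69 (limma adjusted p 0.039). Krt8-ps, a processed pseudogene with 98.6% identity to Krt8 over 941 bases, held 42 to 196 reads, at most 0.135% of those of Krt8. Gm5200, a pseudogene with 90.2% identity to Krt18 over 1269 bases, held 6 to 18 reads.

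Krt23, a type I keratin described in stressed liver, did not pass the test (chromosome 11 from 99477974 to 99493137, minus strand). It measured 855 and 758 normalized counts in Control against 776, 890 and 479 in Prox1 OE. Prox1 OE replicate 2 had the highest value of all and replicate 3 the lowest. Its log2 fold change of -0.22 (SE 0.26, limma adjusted p 0.54) had a 95% interval from -0.82 to 0.38. Without Prox1 OE replicate 3 it was 0.05.

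**Figure D2:**
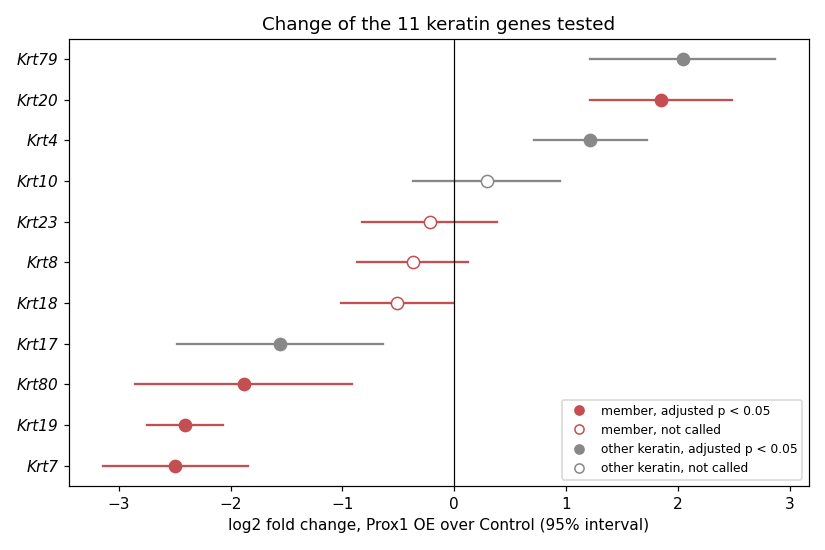
Log2 fold change of Prox1 OE over Control (horizontal axis, points) with its 95% interval (lines) for the 11 keratin genes tested, the 7 described here in red and 4 others in grey; filled points had a limma adjusted p under 0.05. Krt7, Krt19 and Krt80 lie between -2.50 and -1.88, Krt20 at 1.85, and the interval of Krt8 spans 0.

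Levels between genes are compared per kilobase of mean transcript length. In Control, the order of mean normalized counts per kilobase was Krt8 (60307), Krt18 (46414), Krt19 (6101), Krt7 (1007), Krt23 (515), Krt20 (113) and Krt80 (68.4), and no neighbors in that order overlapped between libraries. In Prox1 OE, the order per kilobase was Krt8 (47058), Krt18 (32993), Krt19 (1141), Krt23 (457), Krt20 (416), Krt7 (186) and Krt80 (19.8). There, Krt8 and Krt18 overlapped, at 41268 to 55721 and 28569 to 41568 per kilobase, as did Krt23 and Krt20. Krt7 thus went from above Krt23 and Krt20 to below both in mean level per kilobase. With coding length in place of transcript length, Krt20 and Krt80 overlapped in Control, Krt20 stood above Krt23 in Prox1 OE, and Krt23 and Krt7 overlapped. The sum of the 7 levels per kilobase was 111768 and 117286 in the Control libraries and 75116, 99711 and 71989 in the Prox1 OE libraries. Krt8 and Krt18 made up 52.7% and 40.5% of that sum in Control and 57.3% and 39.9% in Prox1 OE. The share of Krt19 per length went from 5.31% ± 0.74 (SD, n = 2) to 1.40% ± 0.16 (SD, n = 3), and that of Krt7 from 0.879% to 0.234%. The share of Krt20 per length went from 0.0994% to 0.512%, above that of Krt7 in every Prox1 OE library.

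**Figure D3:**
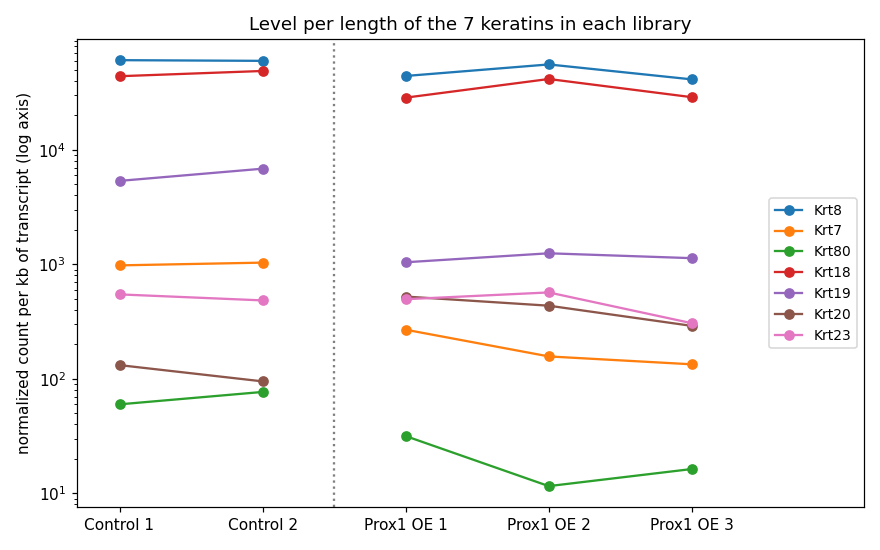
Normalized count per kilobase of mean transcript length (vertical axis, logarithmic) of the 7 keratins in each of the 5 libraries, with lines joining the libraries of a group. Krt8 and Krt18 lie at 28569 or more in every library, while Krt7 (orange) falls below Krt20 (brown) and Krt23 (pink) in all 3 Prox1 OE libraries.

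Ratios between keratins of the same library do not depend on how libraries are scaled. Krt18 to Krt8, per length, was 0.724 and 0.816 in the Control libraries and 0.647, 0.746 and 0.699 in the Prox1 OE libraries. These overlapped (log2 difference -0.14, exact permutation p = 0.3, two-sided). Krt19 to Krt18 was 0.122 and 0.140 in Control and 0.0365, 0.0301 and 0.0393 in Prox1 OE, a log2 difference of -1.90. Krt7 to Krt8 was 0.0161 and 0.0173 in Control and 0.00609, 0.00282 and 0.00326 in Prox1 OE, a log2 difference of -2.13. For both ratios the groups did not overlap and the exact permutation p was 0.1 (0.15 after Benjamini-Hochberg over the 3 pairs), the smallest that 2 against 3 libraries allow. The ductal keratins were therefore lower also when counted against the shared pair. Type I keratins summed per length, relative to type II, went from 0.810 and 0.923 to 0.689, 0.784 and 0.738, a log2 difference of -0.23 (exact permutation p = 0.1).

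Bile duct genes other than keratins fell as well, with 14 of 19 tested called lower and 2 higher and a median log2 fold change of -1.07. Cldn4, a tight junction protein, changed by -2.98 (limma adjusted p 0.011) and Cftr, the chloride channel of duct cells, by -1.92 (limma adjusted p 0.0014). The 2 that rose were the water channel Aqp1 (0.73, limma adjusted p 0.014) and Ggt6, a gamma-glutamyltransferase (0.66, limma adjusted p 0.0076), and neither was called under total-count scaling (limma adjusted p 0.12 and 0.23) or without Control replicate 1 (limma adjusted p 0.15 and 0.065). Aqp1 was also not called without Prox1 OE replicate 2 (limma adjusted p 0.053), nor Ggt6 without Control replicate 2 (limma adjusted p 0.084). Fewer genes of the list were called lower without Control replicate 1, or without Control replicate 2, than with all libraries. Cldn4 was then not called, at -3.45 without Control replicate 1 and -2.51 without Control replicate 2. The list holds markers that had been examined in these tumors before, among them Sox9, and is no independent evidence of its direction. Each keratin was set against the mean log2 value of these 19 genes in its own library. On that scale the difference between groups was -1.52 for Krt7, -1.43 for Krt19 and -0.91 for Krt80. It was 0.47 for Krt18, 0.61 for Krt8, 0.76 for Krt23 and 2.83 for Krt20. Relative to this mean, Krt7 and Krt19 were lower in all 3 Prox1 OE libraries than in both Control libraries, although single genes of the list, such as Cldn4, fell by more than either. The exact permutation p was 0.1 for Krt7, Krt8, Krt19 and Krt20 (0.175 after Benjamini-Hochberg over the 7 keratins), the smallest possible, and 0.2 for the others.

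**Figure D4:**
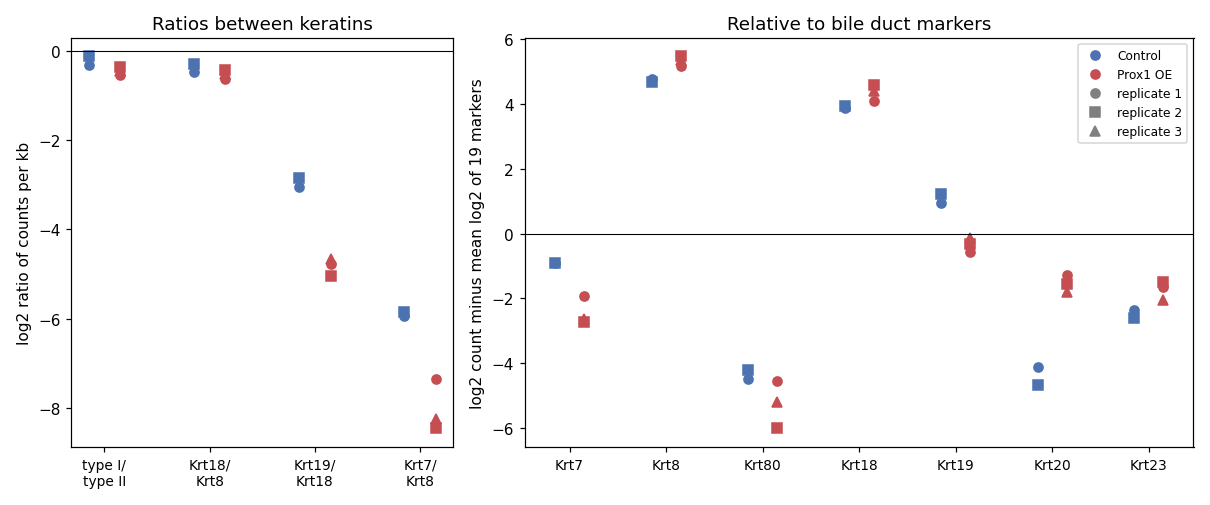
Left, log2 ratios per kilobase of type I to type II keratins and of 3 keratin pairs; right, log2 normalized count of each keratin minus the mean log2 value of 19 bile duct markers, in Control (blue) and Prox1 OE (red) libraries with marker shape giving the replicate. Krt19/Krt18 and Krt7/Krt8 are lower in all 3 Prox1 OE libraries, Krt18/Krt8 overlaps, and Krt20 stands 2.83 higher relative to the markers.

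Markers of other cell types that can hold keratins also differed between the groups. Hepatocyte markers, whose keratins are Krt8 and Krt18, were higher for 15 of 18 and lower for none (median 1.82). Examples were Hpd, a tyrosine-degrading enzyme (2.81, limma adjusted p 0.0068), and Tat, another (2.72, limma adjusted p 0.012). The summed hepatocyte level was 1295980 to 1941306 normalized counts in Control and 3979264 to 5775027 in Prox1 OE, and none of the 18 was at 3 reads or fewer in every library. The labels give the cell type as transformed hepatocytes. Without Control replicate 1, 2 of the hepatocyte genes were called, with limma adjusted p of 0.061 for Hpd and 0.098 for Tat, and without Prox1 OE replicate 2 it was 9. Mesothelium, the covering of the liver, expresses Krt7 and Krt19. Of 7 mesothelial markers tested, 4 fell and none rose (median -1.54), and their sum was 472 to 653 normalized counts in Control and 204 to 343 in Prox1 OE. Msln measured 123 and 55.9 in Control and 1.02, 3.54 and 1.16 in Prox1 OE, and Upk1b 60.0 and 21.2 in Control with no read in Prox1 OE. Dividing-cell genes were lower for 10 of 10 (median -0.94), led by Cenpf (-1.30, limma adjusted p 0.0043) and Bub1 (-1.21, limma adjusted p 0.0089), and summed to 37589 to 55734 in Control against 19660 to 26000 in Prox1 OE. Without Control replicate 1, 1 of them was called and 2 of the mesothelial markers, and Bub1 had a limma adjusted p of 0.096. The part of hepatocyte, mesothelial and dividing-cell content in the keratin differences was not tested.

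Since Krt20 is known from gut epithelium, markers of stomach and intestine were examined beside it. Cdx1, Cdx2, Tff1, Gkn1 and Gkn2, which define these tissues, were at 3 reads or fewer in every library. Of the 6 tested, 3 rose, namely Fabp2, which is a fatty acid binding protein (1.99, limma adjusted p 0.0025), Tff3 (2.80, limma adjusted p 0.024) and Muc13 (1.52, limma adjusted p 0.0055). The adhesion protein Cdh17 (-3.09, limma adjusted p 0.016) and the microvillus protein Vil1 (-1.39, limma adjusted p 0.021) fell. The list summed to 3258 to 4067 normalized counts in Control and 8912 to 13649 in Prox1 OE, most of it Fabp2, and it moved in both directions. Without Control replicates 1 and 2 in turn, limma adjusted p were 0.16 and 0.058 for Tff3, 0.053 and 0.12 for Cdh17 and 0.18 and 0.061 for Vil1. Without Prox1 OE replicate 2 they were 0.065 for Cdh17 and 0.061 for Vil1, and without Prox1 OE replicate 3 it was 0.065 for Tff3. Its part in the rise of Krt20 was not tested.

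Of the 47 other keratin genes listed, 30 had 3 reads or fewer in every library, 25 of them none at all, and only 4 were abundant enough to test. Krt4, a keratin of stratified mucosa, measured 69.0 and 61.0 normalized counts in Control and 149, 149 and 159 in Prox1 OE (log2 fold change 1.22, limma adjusted p 0.0066). Krt79, known from hair follicle and sebaceous ducts, measured 17.3 and 33.9 against 89.0, 119 and 103 (2.04, limma adjusted p 0.0060). Krt17, known from basal and injured epithelia, measured 262 and 610 against 153, 168 and 96.1 (-1.56, limma adjusted p 0.022). Krt17 was high mainly in Control replicate 2, and without that library the change was -0.95 (limma adjusted p 0.16). Its limma adjusted p was 0.051 without Prox1 OE replicate 2 and 0.052 without replicate 3. Krt4 had limma adjusted p of 0.061 and 0.066 without Control replicates 1 and 2, and Krt79 had 0.058 without Control replicate 1. Krt10, a skin keratin, overlapped between groups (0.29, limma adjusted p 0.45, and -0.14 under total-count scaling). Of the list of 11 stratified keratins, 3 were tested, with 1 higher and 1 lower and a median of 0.29. Of 12 skin keratinocyte markers, Krt1, Flg, Trp63 and Krtdap were at 3 reads or fewer in every library, and of the 4 tested only Ivl fell (-1.72, limma adjusted p 0.032, and -0.80 with 0.19 without Control replicate 2, a call also lost without any 1 Prox1 OE library).

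The genes of the keratins lie in 2 clusters, type II on chromosome 15 and type I on chromosome 11, with Krt18 as the exception that sits beside Krt8. The starts of Krt8 and Krt18 are 23.7 kilobases apart on opposite strands, and both were lower in the Prox1 OE libraries without passing the test. Neighbors in the clusters did not all move one way. Krt7 and Krt80, 40.9 kilobases apart, both fell, although the call of Krt80 needed both Control libraries. Krt20 and Krt23 lie 39.8 kilobases apart, and Krt20 rose whereas Krt23 did not pass the test. Krt79, the expressed neighbor of Krt8 at 56.4 kilobases, and Krt4, the next beyond Krt7 at 488.2 kilobases, rose. The call of Krt4 needed both Control libraries, and that of Krt79 needed Control replicate 1. Beside Krt19, 107.6 kilobases away, Krt17 fell. The neighbors outside the keratin clusters, Atg101 next to Krt80 (0.47, limma adjusted p 0.057) and Eif4b next to Krt18 (-0.27, limma adjusted p 0.15), did not pass the test. Atg101 was called by edgeR (adjusted p 0.049) and DESeq2 (adjusted p 0.031), with upper-quartile factors (limma adjusted p 0.040) and without Prox1 OE replicate 1 (limma adjusted p 0.0099). Eif4b was called under total-count scaling (limma adjusted p 0.0049) and without Prox1 OE replicate 1 (limma adjusted p 0.0496).

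Among the 7, likeness was measured as the root mean square difference of centered log2 values over the 5 libraries. It is small when 2 genes go up and down together, and also when both change little. Krt8 and Krt18 were most alike (0.11), then Krt8 and Krt23 (0.22), and none of these genes passed the test. Krt7 was about as near to Krt80 (0.40) as to Krt19 (0.41), and Krt7 and Krt20 were farthest apart (2.14). Over all genes tested, those nearest to Krt19 were Flrt3 (0.10), Nlrp10 (0.15) and Alox12 (0.18). Flrt3, a cell adhesion gene, went from 430 and 558 normalized counts to 91.0, 105 and 79.9. Nearest to Krt7 were Gm4744, Igf1r and Csmd1, at 0.04 to 0.09, and Igf1r, the receptor of insulin-like growth factor 1, went from 1513 and 1507 to 440, 260 and 193. Nearest to Krt80 were Slc30a2, Frem2 and Mab21l3, and nearest to Krt20 were Fam3b, Npb and Prss12, at 0.11 to 0.16. Npb, a neuropeptide precursor, went from 10.7 and 6.78 to 44.0, 35.4 and 30.1. Dyrk3, Ift43 and Ppil6 were nearest to Krt8, Gm49064, Mthfd2l and Kazald1 to Krt18, and Tubb2b, Spx and Sept5 to Krt23. With 5 libraries, such nearness is a description of these tumors.

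Keratin filaments are anchored at desmosomes by plakin proteins. Of 15 desmosome and plakin genes, 6 fell and none rose (median -0.48), and 9 did not pass the test. Dsp, desmoplakin, which ties keratins to the desmosome, changed by -1.21 (limma adjusted p 0.0077), and the desmosomal cadherin Dsg2 by -0.98 (limma adjusted p 0.0048). Without Control replicate 1 limma called 0 genes of the list (limma adjusted p 0.067 and 0.063 for these), although 7 were lower at an unadjusted p under 0.05. Without Control replicate 2 or Prox1 OE replicate 2 it called 3. With all libraries edgeR called 6 of them lower and DESeq2 8. Of 13 genes for proteins that bind or modify keratins or bear the name of keratinocytes, 1 rose and 1 fell (median -0.08). Sqstm1, which encodes the p62 protein found with KRT8 and KRT18 in Mallory-Denk bodies, rose (0.88, limma adjusted p 0.0056), from 19997 and 21007 normalized counts to 37282, 34137 and 41859. Pnn, pinin, fell (-0.48, limma adjusted p 0.017). Both calls were lost when either Control library was left out.

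Other intermediate filament genes fell for 4 of 10 and rose for none (median -0.44), led by Lmnb1, a nuclear lamin (-1.20, limma adjusted p 0.0069), and Nes, nestin (-1.06, limma adjusted p 0.0090). Leaving out either Control library left 2 called, with a limma adjusted p of 0.075 for Lmnb1 without replicate 1 and of 0.084 for Nes without replicate 2. Vim, the mesenchymal filament protein, went from 27319 and 28563 normalized counts to 14676, 15100 and 12084. It fell by 1.01 on the log2 scale (limma adjusted p 0.0035). Of 11 stellate cell and fibroblast markers in the same bulk libraries, 5 fell, among them Col1a1 (-1.23, limma adjusted p 0.0033), and 1 rose, Lrat (1.09, limma adjusted p 0.0047), with a median of -0.32. Without Control replicate 1, 2 of them were called lower. The part of stromal content in the Vim difference was not tested. Of 13 tested regulators of epithelial genes, 11 fell and 1 rose (median -1.01). Esrp1, an epithelial splicing factor, changed by -2.71 (limma adjusted p 0.0023), from 859 and 1046 normalized counts to 120, 208 and 120. Grhl2, a grainyhead factor of epithelia, changed by -1.65 (limma adjusted p 0.0023). Without either Control library 6 of the list were called lower. Esrp2, the splicing factor expressed in adult hepatocytes, was the 1 that rose (0.44, limma adjusted p 0.031), a call lost under 7 alternatives and with a log2 change of 0.01 under total-count scaling. Trp63, the regulator of stratified epithelia, was at 3 reads or fewer in every library.

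**Figure D5:**
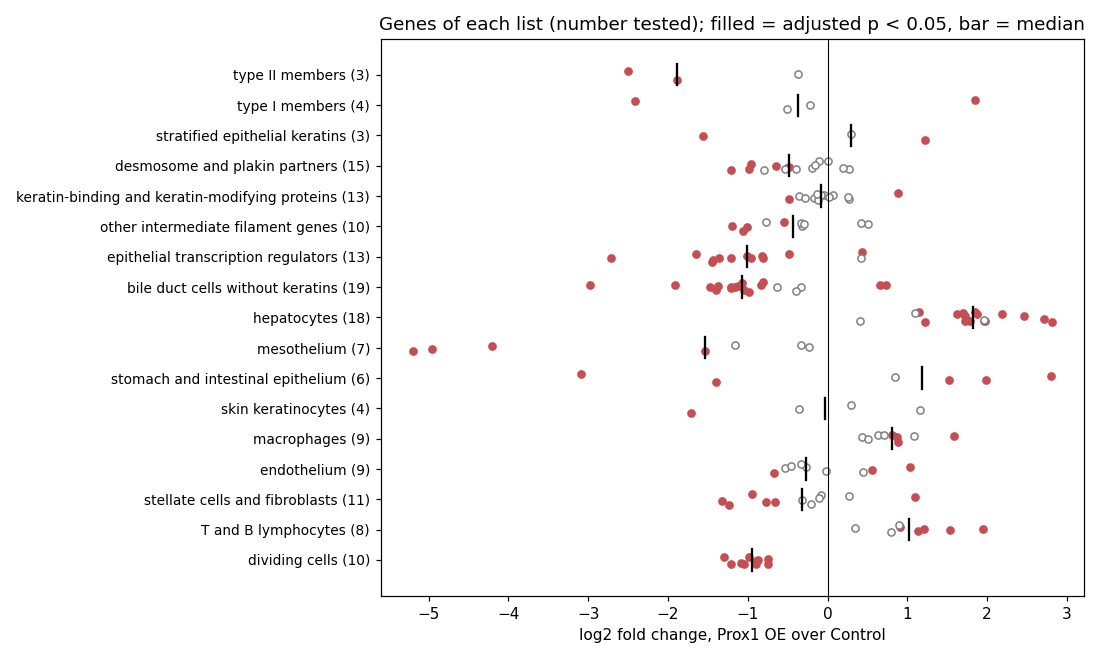
Log2 fold change of Prox1 OE over Control (horizontal axis) for each gene tested (points) of every list (rows, with the number of genes tested); filled points had a limma adjusted p under 0.05 and the black bar is the median of the list. Hepatocyte genes center on 1.82 and bile duct genes on -1.07, while the type I keratins spread from -2.41 to 1.85.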

How the data were processed

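Bulk RNA-seq was performed by the authors on 5 liver tumors with a strand-preserving dUTP protocol and paired reads of 100 bp. The authors mapped reads to mm10 with STAR. The counting tool is not given in the sources used here. Deposited values are a normalized signal, read counts over a DESeq2 size factor, and a second deposited table of the authors' own comparison (fold changes and p-values) was not used. Whole reads were recovered for 100% of values (tolerance 0.001 reads), at 0.822 to 1.18 normalized counts per read. Floors and totals cover counting error only.

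Groups were taken from the labels. Genes with a mean of at least 10 were tested with limma 3.58.1 in R 4.3.3 (lmFit, eBayes with trend, pseudocount 1, no covariate), adjusted by Benjamini-Hochberg and called under 0.05. edgeR 4.0.16 and DESeq2 1.42.0 on the recovered reads were alternatives, as were other scalings, pseudocounts of 0.1 and 10, no filter, a mean of at least 50, limma without trend, a replicate block and each library left out. The 95% intervals were added after seeing the data. Ratios were tested by exact permutation over libraries, which cannot go below 0.1. The procedure was tested on simulated data.

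Positions and lengths came from GENCODE vM21, which matched 99.5% of identifiers, promoters from RefSeq, and near copies from blastn 2.17.0 (at least 85% identity over 400 bases). Named genes were the 7 keratins, Prox1, other keratins with a mean of at least 10, the 3 genes most alike to each keratin, the nearest expressed coding neighbors with a mean of at least 10, and the 2 genes called with the largest change in each direction from each list. Genes given beyond that rule were named after their values were seen. The members and lists were chosen with earlier results of these data known.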

Additional observations from a re-analysis of the deposited data

How the results depend on the processing

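The 4 keratin calls (Krt7, Krt19, Krt80 and Krt20) were made under every alternative except that Krt80 was not called without either Control library. The number of keratins called was 3 to 5 when 1 library was left out and 6 when libraries were scaled by total count. That scaling gave 1475 genes higher and 6833 lower, against 2933 and 2769, so that 17.8% rather than 51.4% of calls were higher, and 60.3% were higher with upper-quartile factors. When 1 library was left out, 1158 to 7491 genes were called, 681 to 3738 higher and 477 to 3753 lower, the lowest of each without Control replicate 1, and the lone Control library is then assumed to vary like the others. Without Control replicate 2 the calls were 2270, and of these 2213 were also called in the same direction with all libraries. DESeq2 called 6647 genes and edgeR 5761. Krt10 turned to -0.14 with the total count. Krt23 went from -0.40 to 0.046 and Tubb2b from -0.33 to 0.049 as libraries were left out in turn, above 0 without Prox1 OE replicate 3 and, with the same values, under the replicate block, which has no partner for that library. The labels do not tie equal replicate numbers together, and deviations of same-numbered libraries correlated at 0.14 and 0.02, so the block was not used. With the block, 5246 genes and the same number of keratins (4) were called, and Prox1 was called as well (2.39, limma adjusted p 0.0013). No keratin ratio changed sign when 1 library was left out, and none can pass 0.05 with 2 against 3 libraries. Of 966 values for the 61 other named genes, 860 kept direction and call, 91 lost the call, 12 gained it and 3 turned. Depth limits Krt80 (32 reads at the lowest) far more than Krt8 or Krt18.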

Other observations

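Marker genes of cells other than epithelium differed between the groups as well. Over all genes tested, 17.1% were called higher and 16.2% lower. Macrophage genes rose for 4 of 9 and fell for none (median 0.81), with the Kupffer cell lectin Clec4f at 1.58 (limma adjusted p 0.016) and the complement receptor Vsig4 at 0.89 (limma adjusted p 0.022). T and B lymphocyte genes rose for 5 of 8 and fell for none (median 1.02), among them Cd8a (1.95, limma adjusted p 0.014) and Cd3g (1.54, limma adjusted p 0.013), at a summed level of only 232 to 283 normalized counts in Control and 506 to 617 in Prox1 OE. Without Control replicate 1, Control replicate 2 or Prox1 OE replicate 2, limma called 0 genes of this list, with 5, 3 and 5 higher at an unadjusted p under 0.05, and it called 3 without Prox1 OE replicate 3. With all libraries edgeR called 5 and DESeq2 6. Genes of stellate cells and fibroblasts fell for 5 of 11 and rose for 1 (median -0.32). Acta2, smooth muscle actin, changed by -1.32 (limma adjusted p 0.0058) and Col1a1, a collagen chain, by -1.23 (limma adjusted p 0.0033), whereas Lrat, the retinol-esterifying enzyme of quiescent stellate cells, rose by 1.09 (limma adjusted p 0.0047). Of 9 endothelial genes, Stab2 of sinusoidal endothelium (1.04, limma adjusted p 0.011) and Tek (0.56, limma adjusted p 0.036) rose and Vwf fell (-0.68, limma adjusted p 0.012), with a median of -0.27. With 3 of 9 called, in both directions, this list lay near the 33.3% called over all genes tested. Without Control replicate 1, Clec4f, Vsig4, Stab2, Tek and Vwf were not called, at 1.10, 0.65, 0.81, 0.61 and -0.62. Fewer macrophage genes were then called higher, and fewer stellate cell and fibroblast genes lower. Tek and Vwf were also not called without Control replicate 2, at 0.51 and -0.73. Total-count scaling lost Tek (0.13, limma adjusted p 0.58) and Vsig4 (0.46, limma adjusted p 0.078). Tek was also lost without Prox1 OE replicate 2 (limma adjusted p 0.065) or replicate 3 (limma adjusted p 0.089). Limma without trend called none of Clec4f, Vsig4 and Tek (adjusted p 0.053, 0.063 and 0.053).

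Krt14 and Krt77, keratins of skin, were present in Control replicate 1 alone, at 28.8 and 36.1 normalized counts, with at most 1 read in any other library. They were chosen after their values were seen and fell under the filter on low values.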
